A study of Mus musculus with 12 samples.

Results

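Matrix metalloproteinases (MMPs) and their tissue inhibitors (TIMPs) were followed in mouse fetal membranes with and without biglycan and decorin. The set held 10 of the 48795 annotated genes, 6 proteases (Mmp2, Mmp3, Mmp9, Mmp11, Mmp13 and Mmp14) and 4 inhibitors (Timp1, Timp2, Timp3 and Timp4), chosen by gene symbol. Of the 10, 9 had enough counts to be tested among 18153 genes, and Mmp3 had 0 counts in every library. The study, named in its title as a model of preterm birth, sequenced membrane RNA in 12 libraries, 3 for each of 4 groups. E12 DKO and E18 DKO were membranes of mice with a double knockout (DKO) of both proteoglycans, at embryonic days 12 and 18, on a strain given as C3H and C57BL/6. E12 WT and E18 WT were wild-type (WT) membranes at the same labelled days, on the strain C3H, so genotype and strain cannot be told apart. The labels do not give the number of animals or litters behind a library, and the p-values measure the spread between libraries, which may be technical.

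MMPs are zinc-dependent enzymes that cut collagens and other matrix proteins outside the cell or at its surface, and most are made as inactive precursors. TIMPs are small secreted proteins that block the active site of these enzymes. Mmp14, an enzyme anchored in the cell membrane, cuts collagen itself and activates the precursor of Mmp2, for which Timp2 serves as a bridge between the enzymes. In fetal membranes the strength of the amnion and chorion rests largely on fibrillar collagen, and the balance of MMPs and TIMPs has been studied there in connection with membrane rupture. Biglycan and decorin are small proteoglycans that bind collagen fibrils.

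Genotype labels and counts of the targeted genes matched. Bgn was at 14.3 to 25.1 CPM (each count over the library size scaled by the trimmed mean of M values, TMM, times 1e6) in DKO libraries and at 223 to 686 CPM in WT libraries. Dcn was at 4.67 to 8.44 and 198 to 978 CPM. The stage labels matched less well. Of all beta-globin counts, the embryonic forms Hbb-y and Hbb-bh1 of early red cells took 82.3 to 85.1% in E12 DKO and 1.33 to 2.67% in E18 DKO, but 74.8 to 87.8% in the group labelled E18 WT. In E12 WT they took 14.8% in library 1 and 95.1 and 97.1% in libraries 2 and 3. Mitochondrial genes gave 21.2% of the counts of E12 WT 3 and at most 7.78% elsewhere. Library 3 labelled E18 WT held 980 CPM of the summed trophoblast and decidua markers, against at most 79.2 CPM elsewhere. Visceral endoderm markers, which belong to the yolk sac, were high in every library (54627 to 179701 summed CPM). The libraries are therefore named by their labels, and every direction drawn from the group labelled E18 WT or from E12 WT 1 rests on labels that the globins go against.

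Compared per kilobase of exon, Mmp14 and Mmp2 were the most abundant proteases and Timp2, Timp3 and Timp1 the most abundant inhibitors. Over the 12 libraries the mean level was 52.6 CPM per kilobase for Mmp14, 44.1 for Mmp2, 35.2 for Timp2, 27.8 for Timp3 and 21.1 for Timp1. Mmp11 followed at 9.39 CPM per kilobase. The other genes were far lower, with Mmp9 at 0.421, Timp4 at 0.122, Mmp13 at 0.0621 and Mmp3 at 0 CPM per kilobase. Neighbours among the leading genes overlapped in their spread: in E18 DKO, Mmp2 was at 63.7 ± 15.9 CPM per kilobase (SD, n = 3) and Timp2 at 65.5 ± 17.4. The order also depended on the group. In E12 DKO, Mmp2 (34.9 ± 1.5 CPM per kilobase) and Mmp14 (32.2 ± 3.9) lay above Timp2 (19.0 ± 1.7), Timp3 (18.2 ± 2.5) and Timp1 (7.04 ± 0.70), without overlap between the proteases and these inhibitors. Mmp11 (11.5 ± 0.85 CPM per kilobase) lay between Timp3 and Timp1 there, and Mmp9 (0.596 ± 0.245) below Timp1, each apart from its neighbours. Timp4 (0.0669 ± 0.0437) and Mmp13 (0.0237 ± 0.0131) came last and overlapped.

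**Figure D1:**
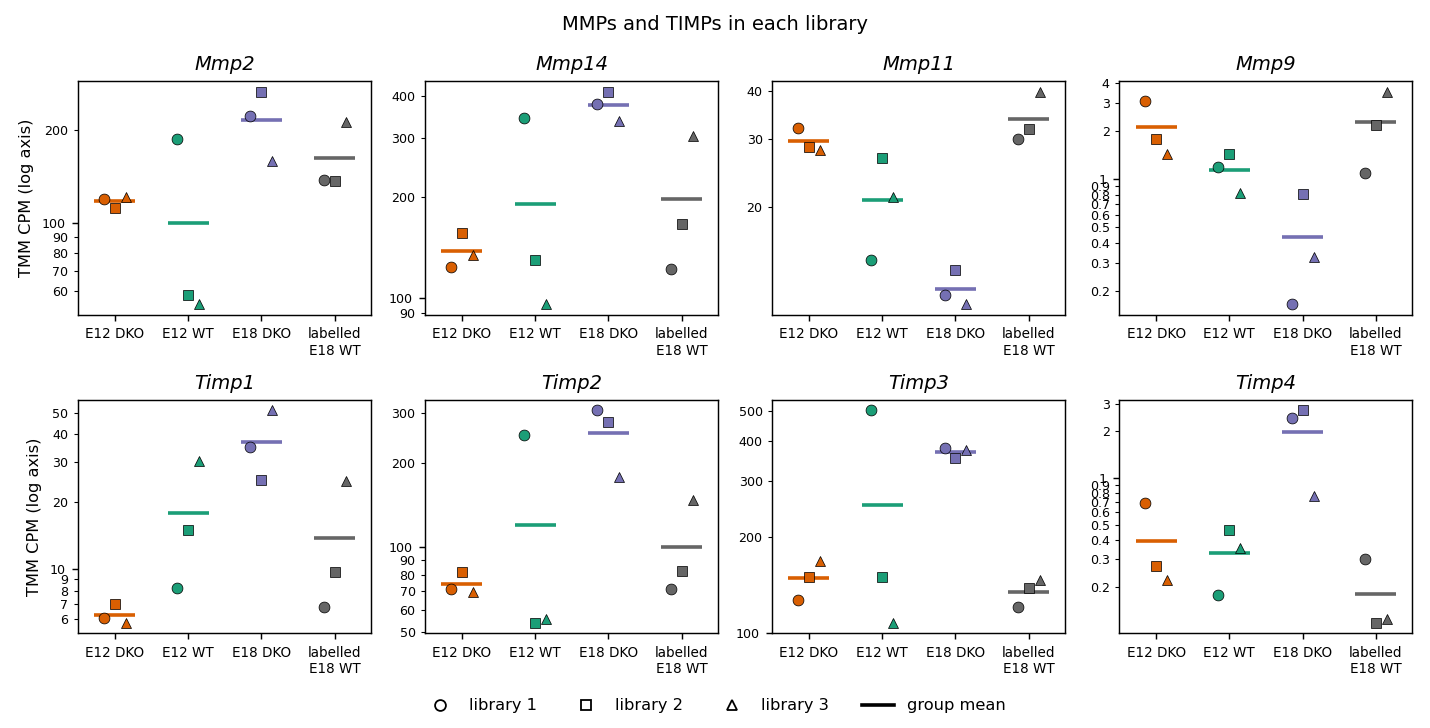
TMM CPM (log axis) of 8 of the 10 genes in each of the 12 libraries, by group; circles, squares and triangles are libraries 1, 2 and 3, and lines are group means of 3 libraries. In E18 DKO, Timp3 lies between 356 and 383 CPM and Mmp11 between 11.2 and 13.8 CPM, and E12 WT 1 lies apart from the other E12 WT libraries for Mmp2, Mmp14, Timp2 and Timp3.

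Mmp3 and Mmp13 stood at or near the limit of detection. Mmp3, a stromelysin that cuts matrix proteoglycans and activates other MMPs (chr9:7445822-7455972, as all gene positions here on build GRCm38), had 0 counts in all 12 libraries, which allows up to 3 counts per library, or 0.0831 to 0.177 CPM, from counting error alone. Mmp13, the main interstitial collagenase of rodents (chr9:7272514-7283333), had 1, 3 and 2 counts in E12 DKO, 1, 0 and 0 in E12 WT, 8, 2 and 9 in E18 DKO and 7, 1 and 11 in the libraries labelled E18 WT. Its counts overlapped between the DKO and WT groups at each labelled stage, and no comparison called it, although it was called for E18 DKO against E12 DKO when E18 DKO 2 was left out (edgeR adjusted p = 0.0470). With all libraries, a difference in either gene was not detectable at this depth.

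The sequences just before the annotated starts of 5 genes are shown because they cover the protease that rose between the DKO stages (Mmp14), a protease that fell (Mmp11), the inhibitor whose rise between the DKO stages kept its call under all settings tried (Timp1), and the 2 proteases at or near 0 (Mmp13 and Mmp3). RefSeq promoter windows of build GRCm38.p6 were matched by symbol for 8 of the 10 genes, not for Mmp2 and Mmp9. Each line gives the 250 bases before the RefSeq start, 5′ to 3′ on the strand of the gene. Capitals mark 3 short motifs, each searched on both strands. TGANTCA gives the letters of an AP-1 site. GGGCGG gives those of a GC box, in Timp1 as its reverse complement. TATAAA gives those of a TATA box. No match overlapped another.
Mmp14, chr14:54431348-54431597, plus strand: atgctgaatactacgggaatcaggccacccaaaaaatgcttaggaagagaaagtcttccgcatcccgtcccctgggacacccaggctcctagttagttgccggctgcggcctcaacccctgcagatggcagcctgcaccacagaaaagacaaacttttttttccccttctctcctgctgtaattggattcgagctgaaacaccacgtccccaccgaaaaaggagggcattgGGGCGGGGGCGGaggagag
Mmp11, chr10:75932503-75932752, minus strand: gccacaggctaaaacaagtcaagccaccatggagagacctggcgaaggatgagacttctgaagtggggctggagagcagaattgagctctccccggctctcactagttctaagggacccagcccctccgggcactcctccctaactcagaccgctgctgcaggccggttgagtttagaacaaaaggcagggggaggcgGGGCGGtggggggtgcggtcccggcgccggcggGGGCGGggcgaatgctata
Timp1, chrX:20869916-20870165, plus strand: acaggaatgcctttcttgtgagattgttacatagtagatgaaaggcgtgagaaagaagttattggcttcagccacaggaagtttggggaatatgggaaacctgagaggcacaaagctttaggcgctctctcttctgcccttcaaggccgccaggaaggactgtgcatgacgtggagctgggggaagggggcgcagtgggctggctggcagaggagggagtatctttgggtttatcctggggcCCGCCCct
Mmp13, chr9:7272264-7272513, plus strand: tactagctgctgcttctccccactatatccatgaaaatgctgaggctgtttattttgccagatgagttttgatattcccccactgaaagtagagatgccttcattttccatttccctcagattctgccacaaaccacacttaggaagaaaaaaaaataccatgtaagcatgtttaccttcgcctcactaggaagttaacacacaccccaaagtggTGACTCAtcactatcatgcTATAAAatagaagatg
Mmp3, chr9:7445572-7445821, plus strand: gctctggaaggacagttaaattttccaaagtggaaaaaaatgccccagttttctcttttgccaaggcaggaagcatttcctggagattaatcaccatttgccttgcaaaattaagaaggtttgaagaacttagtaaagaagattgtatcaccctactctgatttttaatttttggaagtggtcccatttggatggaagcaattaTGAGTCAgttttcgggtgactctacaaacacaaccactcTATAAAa
The windows of Mmp13 and Mmp3, neighbours on chromosome 9, each held 1 AP-1-type match, 1 TATA box match and no GC box match. The AP-1-type match stood 35 to 29 bases before the start of Mmp13 and 46 to 40 bases before that of Mmp3. Mmp14 held 2 adjoining GC box matches, Mmp11 held 2, and Timp1, Timp2 and Timp3 held 1 each. None of these, nor Timp4, held a match of the other motifs. By the gene annotation of the counts, the Timp2 window lay wholly inside that gene (250 bases). Of the Timp3 window, 40 bases lay inside its gene. Of 32851 windows of 250 bases, 6.75% held the AP-1-type letters, 32.7% the GC box and 12.4% the TATA box. The GC content was 37.6% for Mmp3 and 40.4% for Mmp13 and between 53.6 and 68% for the other 6, against a median of 52.4% over all windows. These matches describe letters and show no binding.

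The design compares DKO with WT at each labelled stage, the stages within each genotype, and the difference between the genotype effects. Differences were tested in edgeR by quasi-likelihood on all 12 libraries, with Benjamini-Hochberg adjustment over the 18153 genes, and a gene was called when its adjusted p was under 0.05. E18 DKO is the shared group of most calls below, so the comparisons are not independent. At E12, 0 of the 9 tested genes were called between DKO and WT, where 0.353% of all genes were. Between E18 DKO and the libraries labelled E18 WT, 5 of 9 were called, Timp1, Timp3 and Timp4 higher and Mmp9 and Mmp11 lower, where 42.3% of all genes were called, 20.5% higher and 21.8% lower. Between E18 DKO and E12 DKO, 7 of 9 were called, all 4 TIMPs and Mmp14 higher and Mmp9 and Mmp11 lower, where 46% of all genes were, 23.2% higher and 22.8% lower. Between the libraries labelled E18 WT and E12 WT, 0 of 9 were called (0.953% of all genes). For E12 DKO against the group labelled E18 WT, 0 of 9 were called (0.187%). The share of members called in the E18 DKO comparisons is thus read against transcriptomes in which close to every other gene was called.

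**Figure D2:**
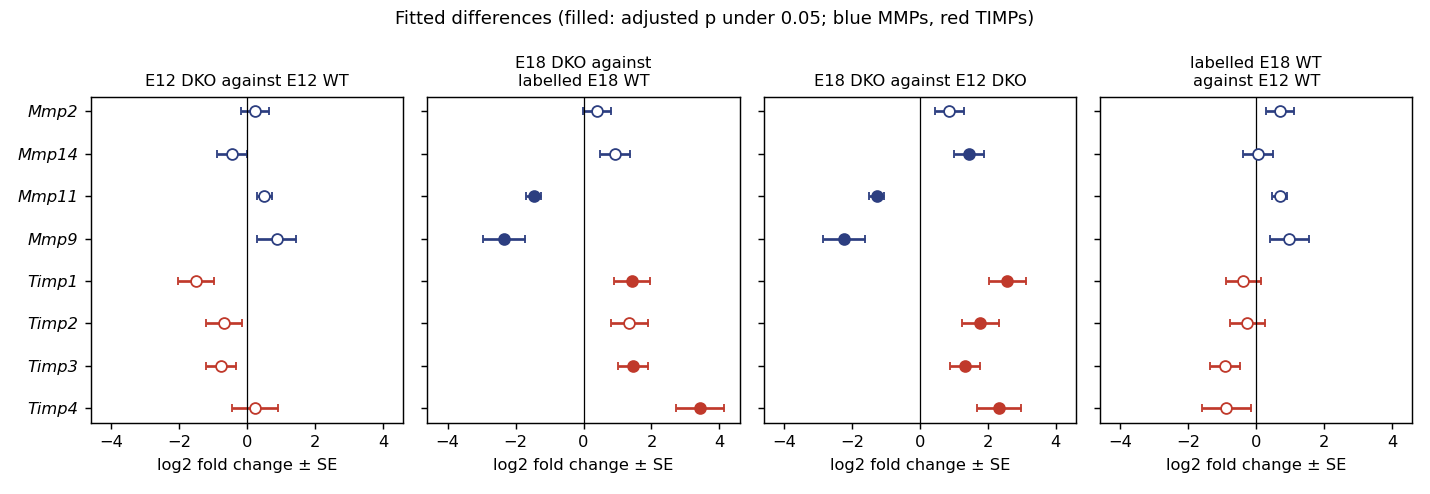
Log2 fold change ± SE (edgeR, n = 3 per group) of 8 genes in 4 comparisons; filled points had an adjusted p under 0.05, MMPs are blue and TIMPs red. In both comparisons with E18 DKO, Mmp9 and Mmp11 lie below 0 and the 4 TIMPs above it, and no gene is called at E12 or between the WT groups.

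Timp1, which binds the precursor of Mmp9 and blocks most secreted MMPs (chrX:20870166-20874735), was highest in E18 DKO. Timp1 measured 6.05, 6.95 and 5.76 CPM in E12 DKO 1 to 3 and 8.24, 15 and 30.4 CPM in E12 WT 1 to 3. Timp1 measured 35.0, 25.0 and 51.4 CPM in E18 DKO 1 to 3 and 6.78, 9.73 and 24.7 CPM in libraries 1 to 3 labelled E18 WT. E12 DKO lay below every E12 WT library, and E18 DKO lay above every library labelled E18 WT by a narrow margin, set by library 3 of that group. The log2 fold change was 2.57 ± 0.55 (SE) for E18 DKO against E12 DKO (edgeR adjusted p = 0.00331), a call kept under all 21 alternative settings. Against the libraries labelled E18 WT it was 1.44 ± 0.53 (edgeR adjusted p = 0.0462). That call was lost when any of E12 DKO 1, 2 or 3, E12 WT 2, E18 DKO 1 or 3, or libraries 1 or 2 labelled E18 WT was left out (adjusted p = 0.0530 to 0.145), and the value was 2.16 without library 3 labelled E18 WT. At E12 it was -1.51 ± 0.53 (adjusted p = 0.130), -1.85 with a call (adjusted p = 0.0312) without E12 WT 1 and -0.89 without E12 WT 3.

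Timp3, the inhibitor that stays bound to the matrix and also blocks ADAM proteases (chr10:86300372-86349506), separated E18 DKO from E12 DKO and from the libraries labelled E18 WT with no overlap. Timp3 measured 127, 150 and 168 CPM in E12 DKO 1 to 3 and 383, 356 and 375 CPM in E18 DKO 1 to 3. Timp3 measured 120, 138 and 146 CPM in libraries 1 to 3 labelled E18 WT and 502, 149 and 107 CPM in E12 WT 1 to 3. The value of E12 WT 1 was the highest of the 12 libraries, while E12 WT 2 lay within the range of E12 DKO and E12 WT 3 below it. The log2 fold change was 1.46 ± 0.45 against the libraries labelled E18 WT (edgeR adjusted p = 0.0226) and 1.33 ± 0.45 against E12 DKO (edgeR adjusted p = 0.0316). The genotype call was lost without E18 DKO 1 or without library 1, 2 or 3 labelled E18 WT (adjusted p = 0.0502 to 0.0737, value 1.38 to 1.52). The stage call was lost without any single library of E12 DKO or E18 DKO (adjusted p = 0.0574 to 0.101, value 1.22 to 1.42). Timp3 lies inside the gene Syn3, on the opposite strand, and the Syn3 counts were 45.6 to 82.7% of those of Timp3 in each library.

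Timp2, the inhibitor that links Mmp14 to the precursor of Mmp2 (chr11:118301069-118355740), followed a like pattern with more spread. Timp2 measured 71.3, 81.7 and 69.4 CPM in E12 DKO 1 to 3 and 250, 54.0 and 55.5 CPM in E12 WT 1 to 3. Timp2 measured 307, 280 and 179 CPM in E18 DKO 1 to 3 and 71.2, 82.3 and 147 CPM in libraries 1 to 3 labelled E18 WT. E18 DKO lay above both groups it was compared with, and E12 WT 1 lay within the range of E18 DKO. In the test, Timp2 gave a log2 fold change of 1.78 ± 0.54 against E12 DKO (edgeR adjusted p = 0.0197), lost without E12 DKO 1, 2 or 3 or E18 DKO 1 (adjusted p = 0.0515 to 0.0633, value 1.63 to 1.85). Against the libraries labelled E18 WT it was 1.35 ± 0.54 and missed the threshold (adjusted p = 0.0620). It passed it without E12 WT 1 (adjusted p = 0.00203), E12 WT 2 (0.0388), E12 WT 3 (0.0404) or library 3 labelled E18 WT (0.0486), and in DESeq2 (0.0254), limma voom (0.0473) and a fit of only these groups (0.0114).

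Timp4, an inhibitor with a narrow tissue range (chr6:115241892-115252205), was scarce, with 3 to 64 counts per library. Timp4 measured 2.42, 2.73 and 0.763 CPM in E18 DKO 1 to 3 and 0.302, 0.117 and 0.123 CPM in libraries 1 to 3 labelled E18 WT. Timp4 measured 0.690, 0.271 and 0.222 CPM in E12 DKO 1 to 3 and 0.176, 0.464 and 0.353 CPM in E12 WT 1 to 3. All 3 E18 DKO libraries lay above the other 9, E18 DKO 3 only just. Timp4 differed by a log2 fold change of 3.43 ± 0.70 against the libraries labelled E18 WT (edgeR adjusted p = 0.00292), a call kept under all 20 settings that gave a value. Against E12 DKO it was 2.32 ± 0.65 (edgeR adjusted p = 0.0132), a call that leaving out E12 DKO 2 (adjusted p = 0.0579) or E12 DKO 3 (0.0594) ended. Without E12 DKO 1 it was 2.97. Timp4 lies inside the gene Syn2, on the opposite strand, and Syn2 had more counts than Timp4 (1377 over the 12 libraries).

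Mmp14 (chr14:54431612-54441265), the membrane-anchored collagenase, was high in E18 DKO and in single WT libraries. Mmp14 measured 124, 157 and 135 CPM in E12 DKO 1 to 3 and 345, 130 and 95.9 CPM in E12 WT 1 to 3. Mmp14 measured 380, 413 and 338 CPM in E18 DKO 1 to 3 and 122, 166 and 305 CPM in libraries 1 to 3 labelled E18 WT. E18 DKO did not overlap either group it was compared with. The log2 fold change against E12 DKO was 1.44 ± 0.45 (edgeR adjusted p = 0.0214), lost without E12 DKO 1 or 3 or E18 DKO 2 (adjusted p = 0.0526 to 0.0723, value 1.36 to 1.42). Against the libraries labelled E18 WT it was 0.93 ± 0.44 (adjusted p = 0.110), not called, and it was called without E12 WT 1 (0.93, adjusted p = 0.0194), without library 3 labelled E18 WT (1.38, adjusted p = 0.0401) and in a fit of only these groups (0.94, adjusted p = 0.0464).

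Mmp2, gelatinase A (chr8:92827291-92853420), was called in no comparison with all libraries. Mmp2 measured 120, 112 and 121 CPM in E12 DKO 1 to 3, a narrow range, and 187, 58.5 and 54.6 CPM in E12 WT 1 to 3. Mmp2 measured 221, 265 and 159 CPM in E18 DKO 1 to 3 and 138, 137 and 212 CPM in libraries 1 to 3 labelled E18 WT. E12 DKO lay between E12 WT 1 and the other E12 WT libraries, and below every library labelled E18 WT. The log2 fold change was 0.41 ± 0.42 between the genotypes at labelled E18 (adjusted p = 0.455) and 0.87 ± 0.42 for E18 DKO against E12 DKO (adjusted p = 0.110). The latter passed the threshold in a fit of only these groups (0.87, adjusted p = 0.00520) and without E12 WT 1 (0.87, adjusted p = 0.00580). Without E12 WT 1, E12 WT 3 and library 3 labelled E18 WT together, it passed as well (0.87, adjusted p = 0.00295), as did the genotype difference (0.64, adjusted p = 0.0251). Without E12 WT 1 there were also calls for E12 DKO against E12 WT (1.06, adjusted p = 0.0186, against 0.23 with all libraries) and labelled E18 WT against E12 WT (1.52, adjusted p = 0.0111, against 0.70).

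Mmp11, stromelysin-3, a protease activated inside the cell by furin (chr10:75923222-75932502), was lowest in E18 DKO. Mmp11 measured 32.1, 28.6 and 28 CPM in E12 DKO 1 to 3 and 14.6, 26.9 and 21.2 CPM in E12 WT 1 to 3. Mmp11 measured 11.9, 13.8 and 11.2 CPM in E18 DKO 1 to 3 and 30.0, 31.8 and 39.8 CPM in libraries 1 to 3 labelled E18 WT. All 3 E18 DKO libraries lay below the other 9, and E12 WT 1 lay nearest to them. Mmp11 had a log2 fold change of -1.46 ± 0.22 against the libraries labelled E18 WT (edgeR adjusted p = 0.000625) and -1.27 ± 0.22 against E12 DKO (edgeR adjusted p = 0.00109), and both calls were kept under all 21 alternative settings. At E12 it was 0.50 ± 0.22 (adjusted p = 0.187), with E12 DKO above every E12 WT library.

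Mmp9, gelatinase B, an enzyme of leukocytes, trophoblast and osteoclasts (chr2:164940780-164955850), was scarce and fell in E18 DKO. Its counts were 3, 19 and 6 in E18 DKO 1 to 3, or 0.165, 0.810 and 0.327 CPM. In libraries 1 to 3 labelled E18 WT they were 29, 74 and 86, or 1.09, 2.17 and 3.53 CPM. Mmp9 measured 3.09, 1.80 and 1.44 CPM in E12 DKO 1 to 3 and 1.19, 1.43 and 0.824 CPM in E12 WT 1 to 3. Every E18 DKO library lay below the other 9, E18 DKO 2 only just. Mmp9 had a log2 fold change of -2.34 ± 0.62 against the libraries labelled E18 WT (edgeR adjusted p = 0.0109) and -2.24 ± 0.61 against E12 DKO (edgeR adjusted p = 0.0122). Both calls were kept under all 21 settings, and without E18 DKO 2 the values were -3.18 and -3.08.

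**Figure D3:**
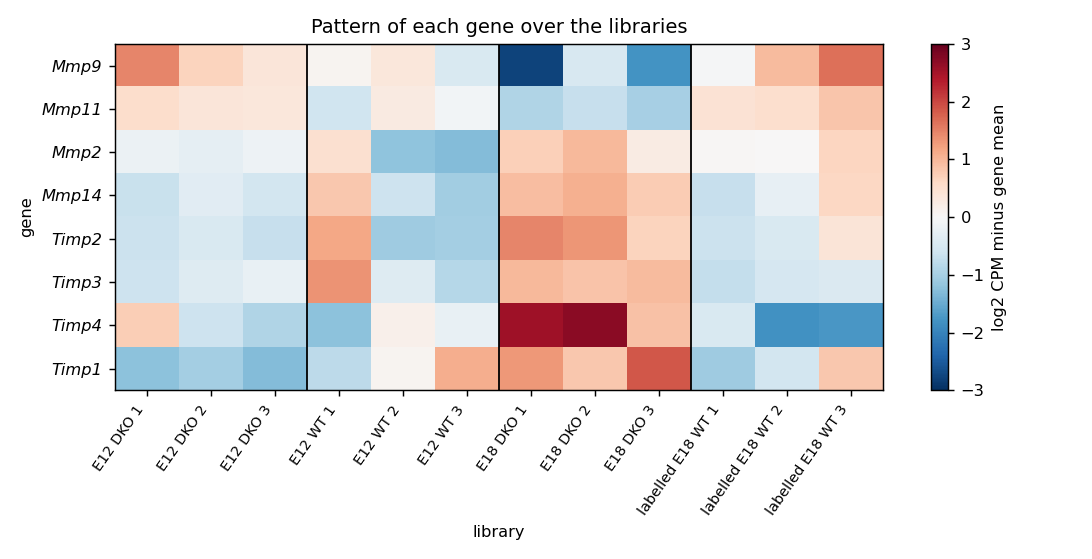
Log2 CPM of 8 genes in each of the 12 libraries, each gene centred on its own mean over the libraries; red is above the mean and blue below. Mmp9 and Mmp11 are blue in E18 DKO and the other genes red there, and E12 WT 1 shares the red of Mmp14, Timp2 and Timp3.

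Medians over the inhibitors and over the proteases describe the same comparisons. Between E18 DKO and the libraries labelled E18 WT the 4 TIMPs had a median log2 fold change of 1.45 and the 5 tested MMPs one of 0.41, against -0.04 over all tested genes. Against E12 DKO the medians were 2.05 for the TIMPs, 0.87 for the MMPs and -0.02 over all genes. The values of 7 of the 9 genes did not overlap between E18 DKO and the libraries labelled E18 WT, where 56.9% of all genes did not, and those of 8 of 9 did not between E18 DKO and E12 DKO, against 67.2%. With library size alone as the scale, which moved the median of all genes to -0.41 and -0.37 in these comparisons, calls went from 3 higher and 2 lower to 1 higher and 2 lower between the genotypes, and from 5 higher and 2 lower to 3 higher and 2 lower between the DKO stages. On that scale Timp1 (1.05, adjusted p = 0.107) and Timp3 (1.10, adjusted p = 0.0522) lost the genotype call, and Mmp14 (1.10, adjusted p = 0.0535) and Timp3 (0.98, adjusted p = 0.0752) the stage call, all still above 0. Leaving out single libraries gave 3 to 7 genotype calls, the lowest without E18 DKO 1 or library 1 or 2 labelled E18 WT. It gave 3 to 8 stage calls, with 3 without E12 DKO 3 and 4 without E12 DKO 1 or 2. Over all genes, leaving out single libraries gave 5833 to 9452 genotype calls and 6426 to 10014 stage calls.

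Markers of several cell types differed in E18 DKO beside these genes, and within most lists in both directions. Summed levels are over all markers of a list, and calls are against the group labelled E18 WT. In that comparison 42.3% of all genes were called, 20.5% higher and 21.8% lower. The 9 macrophage markers, all with counts, summed to 918 to 1312 CPM in E18 DKO and to 343 to 671 CPM elsewhere, with Csf1r alone at 588 to 804 CPM in E18 DKO. Of these, 6 were called higher and 2 lower (Adgre1 and Mrc1). The 10 fetal membrane epithelium markers summed to 5267 to 6877 CPM in E18 DKO and to 2006 to 4893 CPM elsewhere, with 5 called higher and 2 lower (Krt5 and Grhl3). The 10 mesenchyme markers summed to 2763 to 4858 CPM in E18 DKO and to 11171 to 30252 CPM elsewhere, with 8 called lower and Pdgfrb higher. The 10 cartilage and bone markers summed to 5.99 to 6.54 CPM in E18 DKO and to 27.3 to 782 CPM elsewhere, with 4 of the 6 tested called lower and Acan higher. The 10 neutrophil markers summed to 194 to 279 CPM in E18 DKO, of which Cxcr2 made 174 to 274 CPM, and E12 WT 1 had 89.9 CPM of Cxcr2. Of the 5 tested, Cxcr2 and S100a9 were called higher and Mpo lower. S100a9 was at 1.92 to 8.61 CPM in E18 DKO and at most 0.903 CPM elsewhere, and S100a8 at 0.385 to 7.03 CPM and at most 1.52 CPM. Ly6g was at 0 in E18 DKO and in the group labelled E18 WT, and Elane at 0 in E18 DKO. The 6 osteoclast markers summed to 81.5 to 196 CPM in E18 DKO and to 56.2 to 121 CPM elsewhere. The part of these cell types in the MMP and TIMP differences was not tested, and in bulk tissue fewer cells of a type and less RNA per cell cannot be told apart.

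The genotype effect differed between the labelled stages for 6 of the 9 genes, where 41.9% of all genes were called in that test, 21.6% higher and 20.3% lower. The difference, E18 effect minus E12 effect, was negative for Mmp9 (-3.21 ± 0.84, edgeR adjusted p = 0.0110) and Mmp11 (-1.96 ± 0.31, adjusted p = 0.000822). It was positive for Timp1 (2.95 ± 0.75, adjusted p = 0.00942), Timp2 (2.04 ± 0.75, adjusted p = 0.0475), Timp3 (2.23 ± 0.63, adjusted p = 0.0158) and Timp4 (3.19 ± 0.96, adjusted p = 0.0207). Mmp14 (1.39 ± 0.62, adjusted p = 0.0928), Mmp2 and Mmp13 did not pass. Timp2 is the least firm of these, with its call lost in 11 of 20 settings, and leaving out E12 WT 1 took it from 2.04 to 0.91 and Timp3 from 2.23 to 1.25. Mmp14 passed without E12 WT 3 (1.70, adjusted p = 0.0330) or without library 3 labelled E18 WT (1.84, adjusted p = 0.0353), and was at 0.63 without E12 WT 1. With library size alone, which moved the median of all genes by -0.64, 1 gene was called higher and 2 lower in place of 4 and 2, with Timp2 (1.35), Timp3 (1.54) and Timp4 (2.59) still above 0.

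At E12 the genotype groups were not separated by the test. On simulated counts the test for this comparison called 7% of 2-fold and 61% of 4-fold changes, so 0 calls do not show equal levels. The median log2 fold change was -0.73 for the 4 TIMPs and 0.50 for the 5 tested MMPs, against -0.08 over all genes. Without E12 WT 1 these medians were 0.07 for the TIMPs, with the sign turned, and 0.89 for the MMPs. With all libraries 2 of the 9 genes, Mmp11 and Timp1, had an unadjusted p under 0.05. Values did not overlap for Mmp9, Mmp11 (both higher in E12 DKO) and Timp1 (lower), 3 of 9 against 30.1% of all genes. DESeq2 called 1 gene, Timp1 (-1.51, adjusted p = 0.0448), and limma voom 0. Without E12 WT 1 edgeR called 2, Mmp2 higher and Timp1 lower. Over all genes, calls at E12 ran from 0 to 2085 across the settings, and from 1 to 3199 with 1 library left out. The calls of members in these settings are read beside those counts. Between the libraries labelled E18 WT and E12 WT, 2 of 9 had an unadjusted p under 0.05 (Mmp11 and Mmp13), DESeq2 and limma voom called 0, and 1 of 9, Mmp11, did not overlap, where 17.9% of all genes did not. For E12 DKO against the group labelled E18 WT, 0 of 9 had an unadjusted p under 0.05, DESeq2 and limma voom called 0, and 1 of 9, Mmp2, did not overlap (30% of all genes).

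The protease-to-inhibitor balance was taken in each library as the log2 ratio of the summed CPM per kilobase of the 6 MMPs to that of the 4 TIMPs. It is a description and carries no test. E12 DKO 1 to 3 had balances of 0.93, 0.78 and 0.81, and E12 WT 1 to 3 of 0.07, 0.25 and -0.39. E18 DKO 1 to 3 had balances of -0.06, 0.32 and -0.20, and libraries 1 to 3 labelled E18 WT of 1.00, 0.91 and 0.85. Transcripts of the 6 listed MMPs thus outnumbered those of the 4 TIMPs in E12 DKO (0.84 ± 0.08, SD, n = 3, or 1.79-fold) and in the libraries labelled E18 WT (0.92 ± 0.08, 1.89-fold). The sums were close to equal in E12 WT (-0.02 ± 0.33) and E18 DKO (0.02 ± 0.27). The DKO groups lay above WT at E12 and below it at labelled E18, with no overlap in either case. E12 WT 1 lay between E12 WT 2 and 3 on this measure, unlike its place for Mmp14, Timp2 and Timp3. MMPs outside the 6 are not in the sums, and some differed between the groups. Mmp15 averaged 145 CPM in E18 DKO, 57.9 in E12 DKO, 90.4 in E12 WT and 61.6 with the label E18 WT. Mmp19 averaged 111, 4.37, 11.9 and 9.17 CPM in the same order, and Mmp16, the other way, 1.35, 3.35, 2.89 and 11.9 CPM. The balance is therefore that of the listed genes alone.

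The E18 DKO balance came from larger sums on both sides. The MMP sum was 156 ± 25 CPM per kilobase in E18 DKO against 79.2 ± 1.8 in E12 DKO, 82.4 ± 51.8 in E12 WT and 108 ± 37 for labelled E18 WT. The TIMP sum was 153 ± 11 CPM per kilobase in E18 DKO against 44.3 ± 3.2, 82.0 ± 46.4 and 57.7 ± 22.7. Within the MMP sum, Mmp11 made up 3.08 ± 0.24% in E18 DKO and 12.7 to 14.5% on average in the other groups, although it was 4.01% in E12 WT 1. Mmp14 and Mmp2 made up the rest almost entirely, at 56.4 ± 3.6% and 40.3 ± 3.8% in E18 DKO. Within the TIMP sum, Timp1 made up 14.4 to 16.7% in E12 DKO, 19.6 to 38.6% in E18 DKO, 18.8 to 33.3% in the group labelled E18 WT and 6.87 to 55.4% in E12 WT.

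**Figure D4:**
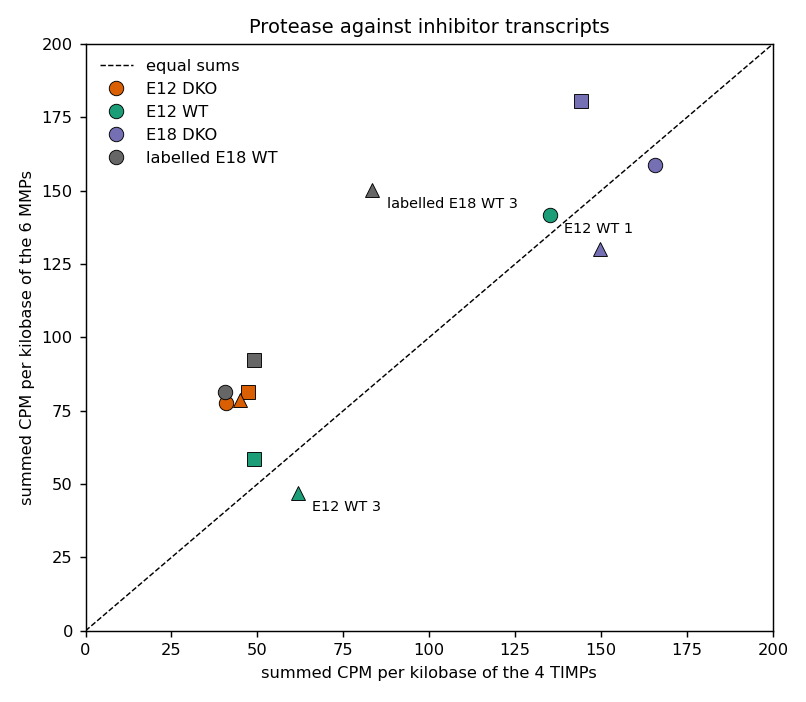
Summed CPM per kilobase of the 6 MMPs against that of the 4 TIMPs in each library (circle, square and triangle are libraries 1, 2 and 3); the dashed line marks equal sums. E12 DKO and labelled E18 WT lie above the line, and E18 DKO and E12 WT lie near it, with E12 WT 1 among the large sums.

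Ratios of single partners separated the groups to different degrees. Mmp14 to Timp2, the pair that assembles on the cell surface, did not separate the groups, with log2 ratios of 0.76 ± 0.09 (E12 DKO), 0.45 ± 0.31 (E18 DKO), 0.70 ± 0.40 (E12 WT) and 0.81 ± 0.15 (labelled E18 WT), which overlapped in all groups compared. Mmp2 to Timp2 stood at 0.88 ± 0.19 in E12 DKO and at 0.95 ± 0.21 in the group labelled E18 WT, but 0.10 ± 0.28 in E12 WT and -0.03 ± 0.21 in E18 DKO. Mmp9 to Timp1, an enzyme and the inhibitor that binds its precursor, spanned the widest range, from -2.96 in E12 DKO 1 to -9.72 in E18 DKO 1. It averaged -8.65 ± 1.496 in E18 DKO and -4.53 ± 0.33 in the group labelled E18 WT. In E18 DKO 1 and 3 this ratio rests on 3 and 6 Mmp9 counts, at or near the floor of 3 counts. The ratios compare transcripts per length and say nothing of protein or of enzyme activity.

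Likeness of pattern was measured as the root mean square difference in log2(CPM + 0.5) over the 12 libraries, after centring each gene, where 0 is an identical pattern. The closest pair among the members was Mmp14 and Timp2 (0.256), then Mmp9 and Mmp11 (0.358) and Mmp14 and Timp3 (0.379). The most unlike pair was Mmp9 and Timp1 (1.60). Among 11236 genes with a mean of at least 5 CPM, those nearest to Mmp11 were Patz1 (0.0869) and Dkc1 (0.127), and those nearest to Timp3 were B4galt1 (0.165) and St3gal1 (0.191). Heg1 (0.211) and Klf6 (0.218) were nearest to Mmp14, Kremen1 (0.202) and Chp1 (0.212) to Timp2, and Grb10 and Cttnbp2nl (both 0.215) to Mmp2. Capn12 (0.349) and Nab2 (0.394) were nearest to Timp1, whose nearest gene lay furthest off of all members. Mmp9 lay nearest to Zfp449 (0.303) and Cdon (0.307), Timp4 to Pex11a (0.296) and Ica1 (0.308), and Mmp13 to Cul9 (0.181) and Unc93b1 (0.199), on few counts of their own.

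Of the 17 other mouse MMPs listed, 9 were tested. Between E18 DKO and the libraries labelled E18 WT, 3 rose and 1 fell, where 42.3% of all genes were called. From E12 DKO to E18 DKO, 5 rose and 1 fell, where 46% of all genes were. In the other comparisons of groups 0 passed in edgeR on the TMM scale with all libraries. Without E12 WT 1, 1 fell at E12 and 1 rose between the WT groups. With all libraries, DESeq2 called 1 lower at E12, 1 higher between the WT groups and 1 lower for E12 DKO against labelled E18 WT. Library size alone gave 1 higher between the WT groups. Across the settings, calls over all genes ran from 0 to 2085 at E12 and from 30 to 1223 between the WT groups. They ran from 16 to 247 for E12 DKO against labelled E18 WT. With 1 library left out they reached 3199 at E12 and 1684 between the WT groups. Over all settings the genotype counts of these MMPs ran from 2 to 4 higher and 1 to 2 lower. Their DKO stage counts ran from 4 to 6 higher and 0 to 1 lower. By library size alone 2 rose and 2 fell between the genotypes. Mmp19, a secreted protease of epithelia and vessels, measured 95.1, 110 and 128 CPM in E18 DKO 1 to 3 and at most 17.6 CPM in every other library. Its log2 fold change was 3.60 ± 0.59 against the libraries labelled E18 WT (edgeR adjusted p = 0.000916), 4.46 without library 3 of that group, and 4.67 ± 0.62 against E12 DKO (edgeR adjusted p = 0.000249). Mmp16, another membrane-anchored MMP, measured 0.989, 2.09 and 0.980 CPM in E18 DKO 1 to 3 against 7.61, 14.1 and 14.1 CPM in libraries 1 to 3 labelled E18 WT (-3.13 ± 0.51, edgeR adjusted p = 0.000890).

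The 20 listed regulators and partners of MMPs, which include convertases, receptors and further inhibitors, were all tested. Between E18 DKO and the libraries labelled E18 WT, 6 rose and 4 fell, beside 42.3% of all genes called. From E12 DKO to E18 DKO, 6 rose and 2 fell, beside 46% of all genes. In the other comparisons of groups 0 passed in edgeR with all libraries, while DESeq2 called 1 lower at E12 and 1 higher between the WT groups. Without E12 WT 1, 4 rose and 1 fell at E12, and 2 rose between the WT groups. With 1 library left out, calls over all genes ran from 1 to 3199 at E12 and from 35 to 1684 between the WT groups. Over all settings the genotype counts of the listed regulators ran from 2 to 8 higher and 2 to 6 lower. They were 2 and 4 without library 2 labelled E18 WT and 3 and 2 without E18 DKO 1. The DKO stage counts ran from 3 to 8 higher and 1 to 4 lower, with 4 higher without any single library of E12 DKO and without E18 DKO 1 or 3. With library size alone they were 3 higher and 6 lower between the genotypes and 3 and 3 between the DKO stages. Spock2, a testican proteoglycan tied to the control of MMP activation, measured 137, 96.6 and 49.6 CPM in E18 DKO 1 to 3 and 4.3, 1.26 and 2.5 CPM in libraries 1 to 3 labelled E18 WT. It was at 53.2 CPM in E12 WT 1 and at or below 3.16 CPM in the other E12 libraries. Its log2 fold change was 5.14 ± 1.43 between the genotypes at labelled E18 (edgeR adjusted p = 0.0142), lost without library 2 labelled E18 WT (4.79, adjusted p = 0.0567). Cd44, a hyaluronan receptor that anchors MMPs at the cell surface, measured 93.2, 103 and 113 CPM in E18 DKO 1 to 3 against 10.02, 17.7 and 9.78 CPM in E12 DKO 1 to 3 (3.05 ± 0.81, edgeR adjusted p = 0.0103), and 101 CPM in E12 WT 1.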

How the data were processed

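RNA was extracted from frozen, ground fetal membranes and made into libraries with a stranded mRNA kit, per the labels' protocols. Per the submitters' processing notes, the authors used Trimmomatic 0.36, STAR 2.4.2a and featureCounts of Subread 1.5.0 with the build GRCm38. Per the file headers, the deposited values are raw gene counts on Ensembl annotation, counted by strand; overlapping genes on the same strand can lose reads.

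Counts came from the series table (48795 genes, 12 libraries). The files of 11 libraries equalled 1 of its columns each, which settled the join of the libraries labelled E18 WT, whose column numbers differ from their titles; that of E12 DKO 1 lacked counts. Totals were 19967593 to 33065424 counts per library. A floor of 3 counts per library bounds a gene at 0, for counting error only.

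The 10 genes, the wider lists, the tests and the alternatives were chosen with earlier results of these data known, so the lists are no independent support. With edgeR 4.0.16 in R 4.3.3, filterByExpr kept 18153 genes, TMM set the scale, and all 12 libraries entered 1 quasi-likelihood fit with 4 group means, which left 8 residual degrees of freedom. The procedure was tested on simulated data with 200 changed genes. It called 7% of 2-fold and 61% of 4-fold changes between the genotypes at E12, and 9% and 53% at labelled E18. At labelled E18, 42.3% of all genes were called in the data, far more than the 200 changed genes simulated. The adjustment depends on that share, so the 9% and 53% do not give the power of the test there. SEs are the absolute log2 fold change over the root of the F statistic. CPM per kilobase divides by the summed exon length of the files. All 10 genes are named; of the wider lists, the 3 called genes with the largest change per comparison and a mean of at least 1 CPM; the 2 nearest genes in pattern with a mean of at least 5 CPM. Alternatives were DESeq2 1.42.0, limma 3.58.1 voom, other scalings and filters, the replicate number as a block, only the groups compared, and libraries left out. Figures used matplotlib 3.10.9.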

Additional observations from a re-analysis of the deposited data

Results flagged for a closer look

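The genotype effect at labelled E18 differed from that at E12 by the test of the difference itself for 6 of the 9 tested genes. In that test 41.9% of all genes were called, 21.6% higher and 20.3% lower. On the log2 scale the difference was -3.21 for Mmp9, -1.96 for Mmp11, 2.95 for Timp1, 2.04 for Timp2, 2.23 for Timp3 and 3.19 for Timp4 (edgeR adjusted p = 0.0110, 0.000822, 0.00942, 0.0475, 0.0158 and 0.0207). Mmp11 and Timp1 kept the call in all 20 settings. Timp4 lost it without E12 DKO 2 or 3, E12 WT 2 or library 2 labelled E18 WT (adjusted p = 0.0517 to 0.0552) and moved to 3.85 without E12 DKO 1. Timp2 lost it without E12 DKO 1, 2 or 3, E12 WT 1, either of E18 DKO 1 and 2, or either of libraries 1 and 2 with the label E18 WT (adjusted p = 0.0782 to 0.104). Timp1 moved to 2.33 without E12 WT 3 and to 3.67 without library 3 labelled E18 WT, and Mmp9 to -4.04 without E18 DKO 2. Mmp9 lost the call (-2.43, adjusted p = 0.0995) without E12 WT 1, E12 WT 3 and library 3 labelled E18 WT together. Timp3 moved to 1.25 without E12 WT 1 and kept its call. The stage labels of the WT libraries, which the beta-globins go against, enter each of these differences.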

How the results depend on the processing

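Over 21 alternative settings, 1105 values of the 54 gene and comparison pairs were recomputed, and 1002 kept their direction and their side of the threshold. Only 18 of the 54 pairs were called in the main fit, so the 1002 include values that stayed uncalled. A call was lost in 39 values with 1 library left out and in 11 values under the other settings. Counts of called genes moved by over 1.5 times with DESeq2 at E12 (1 in place of 0), with library size alone (3 in place of 5 between the genotypes at labelled E18, and 3 in place of 6 for the difference of effects) and without E12 WT 1, E12 WT 3 and library 3 labelled E18 WT together (8 in place of 5). Smaller moves at labelled E18 were to 7 with only the groups compared, 6 with DESeq2 or limma voom and 4 with at least 1 CPM in 3 libraries. Between the DKO stages they were from 7 to 5 with library size alone, 6 with that filter, and 8 with only the groups compared or the 3 libraries left out. Leaving out 1 library gave 0 to 2 calls between the genotypes at E12 and 3 to 7 at labelled E18. It gave 3 to 8 between the DKO stages and 0 to 1 between the WT groups. Across the other settings, calls over all genes ran from 7199 to 9764 at labelled E18 and from 7818 to 11086 between the DKO stages. For the difference of effects they ran from 7122 to 8625.

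With no division by gene length the balance was 0.33 in E12 DKO and 0.64 where the label was E18 WT. A mean of log2 levels weighs Mmp9 and Timp4 as much as abundant genes, and leaves out Mmp3 and Mmp13, which lacked counts in some libraries. By that mean the 4 groups in the order E12 DKO, E12 WT, E18 DKO and labelled E18 WT stood at 1.42, 0.54, -0.93 and 1.67. The ratio of sums without Timp3 was 1.60, 0.61, 0.53 and 1.46 in the same order. With the longest coding transcript as the length, a setting chosen after seeing the data, E12 DKO was at 0.70. In each of these settings the mean of E12 DKO stayed above E12 WT, and that of labelled E18 WT above E18 DKO.

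Signs changed only among values that were not called. Without those 3 libraries together, Mmp14 (0.089), Timp2 (0.45) and Timp4 (-0.24) between the genotypes at E12, Timp2 (0.51) between the WT groups, Mmp9 (0.36) for E12 DKO against labelled E18 WT and Mmp2 (-0.36) in the difference of effects turned. Timp2 between the WT groups was 0.10 and Mmp2 in the difference -0.51 with library size alone, and 0.065 and -0.077 with limma voom. With 1 library left out, the ranges at E12 were -0.061 to 1.06 for Mmp2, -0.78 to 0.30 for Mmp14, -1.03 to 0.44 for Timp2, -1.13 to 0.21 for Timp3 and -0.43 to 0.59 for Timp4. They were -0.10 to 1.21 for Mmp13 at labelled E18, and between the WT groups -0.40 to 0.81 for Mmp14, -1.11 to 0.24 for Timp1, -0.64 to 0.87 for Timp2 and -1.27 to 0.069 for Timp3. They were -0.48 to 0.37 for Mmp9 in E12 DKO against labelled E18 WT, and -0.65 to 0.46 for Mmp2 in the difference. The cause was not tested.

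With the replicate number as a block, 0, 5, 7, 0 and 0 genes were called in the 5 comparisons of groups and 5 in the difference, where Timp2 was at 1.75 (adjusted p = 0.102). Samples with the same number did not deviate together (correlations of -0.18 to 0.29, the own number best in 13 of 36 cases), so the numbers do not pair the libraries. Over all genes, calls at E12 ran from 0 to 2085, and from 1 to 3199 with 1 library left out. Between the WT groups they ran from 30 to 1223, and from 35 to 1684 with 1 library left out. Low counts limit Mmp3, Mmp13, Mmp9 and Timp4.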

Other observations

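Timp1, Timp3 and Timp4 each lie inside a synapsin gene on the opposite strand (Syn1, Syn3 and Syn2). The span of Timp2 overlaps that of Cep295nl on the same strand, which had 91 counts over the 12 libraries. Syn1 had 160 counts and Syn2 1377 counts over the 12 libraries, against 40082 for Syn3. Syn3 counts were 49.9, 47.0 and 45.6% of those of Timp3 in E12 DKO and 56.6, 68.2 and 82.7% in E12 WT. In E18 DKO they were 74.0, 62.1 and 77.1%, and with the label E18 WT 62.0, 51.5 and 69.3%. The E12 DKO shares lay below those of every other library.

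Library 1 of E12 WT, whose beta-globins were mostly adult, had Timp3 at 502, Mmp14 at 345 and Timp2 at 250 CPM and Mmp11 at 14.6 CPM, on the side of E18 DKO. Of these, Timp3 and Mmp11 lay above the E18 DKO ranges (356 to 383 and 11.2 to 13.8 CPM). In E12 WT 1, Timp1 (8.24 CPM) and Timp4 (0.176 CPM) lay below the E18 DKO ranges. Mmp9 (1.19 CPM) lay above its E18 DKO range (0.165 to 0.810 CPM).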
